A study of Mus musculus with 22 samples.

Results

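Whole-brain gene expression was compared between aged male C57BL/6J mice that had been exposed in early adulthood to chemicals used to model Gulf War illness and later given cannabidiol (GWCBD30) and mice of the same age that had been exposed to neither (CtrlVeh). The comparison used the PBS libraries of these groups as the labels name them, 4 GWCBD30 and 3 CtrlVeh, which is 7 of the 22 libraries of the series, and all genes. GWCBD30 mice had been injected intraperitoneally with pyridostigmine bromide at 0.7 mg/kg together with permethrin at 200 mg/kg on each of 10 days, starting at 10 weeks of age. Aged to 17.5 months, they were given 30 mg/kg cannabidiol (CBD) in Tween 80 and PBS on each of 28 days and then every 2 days for 2 weeks. GWVeh mice (4 libraries) had the same exposure and the CBD vehicle, and their values are given beside the others for some genes and lists. A difference described for GWCBD30 alone was not thereby absent from GWVeh. CtrlVeh mice had the vehicle of the chemicals and the vehicle of CBD. All of these mice were aged in the same way, had a PBS injection in place of lipopolysaccharide (LPS) the morning after the last dose, and had their brains taken 24 hours later. No unexposed group with CBD was analysed here, so in GWCBD30 against CtrlVeh a difference from exposure and a difference from CBD cannot be told apart. The question of the comparison is how near the brains of exposed and treated mice were to those of unexposed mice.

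Pyridostigmine bromide inhibits acetylcholinesterase, the enzyme that ends cholinergic transmission, and permethrin is a pyrethroid insecticide that holds voltage-gated sodium channels open. CBD is a non-intoxicating cannabinoid with low affinity for the CB1 and CB2 receptors and with many other reported targets, among them TRPV channels, the serotonin 1A receptor and PPARγ. The brain's own immune cells are the microglia, which supply most of its complement C1q, survey the tissue through receptors such as CX3CR1 and CSF1R, and are called primed when an earlier insult leaves them responding more strongly to a later one. Whole brains were extracted, so that each value is an average over all regions and cell types, and genes of myelin, astrocytes and neurons were abundant in every library. In such bulk RNA, fewer cells of a type and less RNA per cell cannot be told apart.

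The 7 libraries held 17.4 to 25.5 M counts each, and 3 counts in a library, taken as the floor of detection, corresponded to 0.118 to 0.172 CPM (read counts per M counts of the library, with TMM scaling). Mitochondrially encoded transcripts took 3.83 to 4.84% of the counts. GWCBD30 replicate 4 differed from the rest of its group in some markers. It had 1.32 CPM of *Tph2*, the brain's enzyme for serotonin synthesis, against 15.3, 15.2 and 11.1 CPM in GWCBD30 replicates 1, 2 and 3. CtrlVeh libraries had 3.70, 4.93 and 7.41 CPM, so replicate 4 lay below every control and replicates 1, 2 and 3 above. The mean log2 CPM of GWCBD30 replicate 4 over red blood cell genes was 3.56, against 4.30 to 4.80 in the other GWCBD30 libraries and 4.28 to 4.32 in CtrlVeh. In GWVeh, replicate 4 was likewise the lowest in *Tph2*, with 1.84 CPM against 19.2, 19.7 and 5.68 CPM in GWVeh replicates 1, 2 and 3. *Tph2* marks the raphe nuclei of the brainstem, and how far the share of brainstem or of blood in a sample bears on the comparison was not tested. Counts without GWCBD30 replicate 4 are given beside the counts with it.

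No gene differed between GWCBD30 and CtrlVeh past the threshold. Of 20026 genes tested by edgeR's quasi-likelihood test, 0 (0%) had a Benjamini-Hochberg adjusted p under 0.05, and the smallest adjusted p was 0.9998. At an unadjusted p under 0.05 there were 620 genes (3.10%), 323 higher in GWCBD30 (1.61%) and 297 lower (1.48%), where evenly spread p-values would give 1001.3. DESeq2 called 1 gene, *Gm28437*, described with the other genes of small p, and limma voom called 0. The 2 groups did not overlap in 1115 genes (5.57%): in 568 genes (2.84%) every GWCBD30 library lay above every CtrlVeh library, and in 547 genes (2.73%) every GWCBD30 library lay below. Separation of 4 and 3 libraries also arises by chance, so lack of overlap in a named gene is description only. Without GWCBD30 replicate 4 the count of called genes was again 0, and the count at an unadjusted p under 0.05 was 1075. With all libraries that count was 1266 with no filter on low counts, where more genes were tested, and 2122 with limma voom.

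The same fit gave 0 called genes for GWVeh against CtrlVeh too, with a smallest adjusted p of 0.1135 and 1762 genes (8.80%) at an unadjusted p under 0.05. GWCBD30 against GWVeh gave 0 called genes, a smallest adjusted p of 0.7522 and 1288 genes (6.43%) at an unadjusted p under 0.05. DESeq2 called 6 genes in GWVeh against CtrlVeh and 0 in GWCBD30 against GWVeh, and limma voom called 176 and 0. Without GWVeh replicate 4, edgeR called 12 genes in GWVeh against CtrlVeh. The median size of the log2 fold change was 0.0903 for GWCBD30 against CtrlVeh, 0.124 for GWVeh against CtrlVeh and 0.105 for GWCBD30 against GWVeh. Each pair of these 3 comparisons shares a group of libraries, so their counts and sizes are not independent, and the difference between 620 and 1762 was not itself tested. At an unadjusted p under 0.05 the count for GWVeh against CtrlVeh was 1131 without GWVeh replicate 2, 1055 without CtrlVeh replicate 2, 2658 with no filter on low counts and 3470 with limma voom. That for GWCBD30 against GWVeh was 2365 with no filter and 2175 with limma voom, and 756, 758 and 2136 without GWVeh replicates 1, 2 and 4, and 831 without GWCBD30 replicate 4.

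A p that misses the threshold does not show that levels were alike, so the size of difference that the data still allow was read from the 95% interval of each log2 fold change. The interval lay wholly between -0.5 and 0.5 for 11715 genes, which is 58.5% of those tested, and wholly between -0.25 and 0.25 for 5799 genes (29.0%). How narrow it was depended on the level of the gene. Among the 3882 genes with a mean log2 CPM above 6, 98.7% had an interval within 0.5, and among the 5237 genes between 4 and 6 it was 97.9%. The share was 72.1% of 3633 genes between 2 and 4, 3.90% of 3411 genes between 0 and 2 and 0.0518% of 3863 genes below 0. For nearly all abundant transcripts the libraries therefore bounded a difference to less than 0.5 on the log2 scale, and for weakly expressed transcripts, *Tlr2* and *Tlr4* among them, they bounded it only to a median half-width of 0.602 (0 to 2) or 1.14 (below 0).

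**Figure D1:**
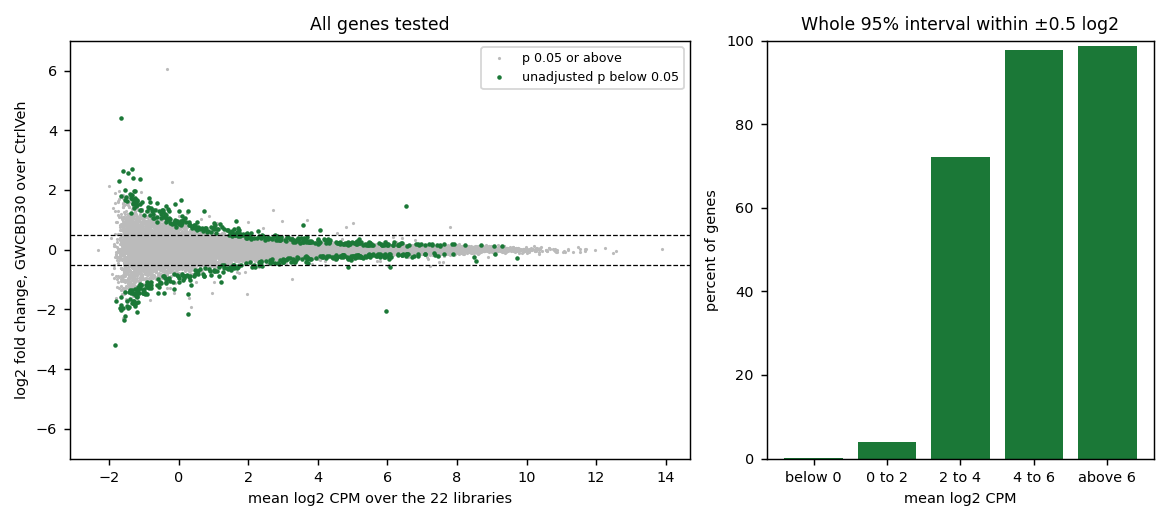
Left: log2 fold change of GWCBD30 over CtrlVeh against mean log2 CPM for the 20026 genes tested, with the 620 genes at an unadjusted p under 0.05 in green and dashed lines at -0.5 and 0.5. Right: percent of genes whose whole 95% interval lies within 0.5 on the log2 scale, in 5 classes of mean log2 CPM; it reached 97.9% and 98.7% in the upper classes.

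The distance of whole libraries to the controls gave a second reading. For each exposed library the root mean square difference in log2 CPM from the mean of the CtrlVeh libraries was taken over the 16168 genes whose average log2 CPM was 0 or above (taken before dispersions were estimated, unlike the average behind the level classes). It was 0.249, 0.243, 0.261 and 0.292 in GWCBD30 replicates 1 to 4, against 0.3, 0.312, 0.266 and 0.243 in GWVeh replicates 1 to 4. The 2 sets overlapped, with GWCBD30 replicate 4 the farthest of its group and GWVeh replicate 4 the nearest of its own. The means were 0.261 ± 0.0217 in GWCBD30 and 0.280 ± 0.0315 in GWVeh (SD, n = 4 each), a difference of -0.0193 with p = 0.286 in a two-sided exact permutation test over 70 arrangements, where the smallest p possible was 0.0286. This measure was chosen after the data had been seen.

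Distances were also taken between single libraries. Over the 12 pairs of a GWCBD30 and a CtrlVeh library the distance ran from 0.294 to 0.364 with a median of 0.311. Within GWCBD30 the 6 pairs ran from 0.281 to 0.370 with a median of 0.325, and within CtrlVeh the 3 pairs ran from 0.288 to 0.321 with a median of 0.3. The 3 ranges overlapped, and pairs that share a library are not independent, so no test was made.

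**Figure D2:**
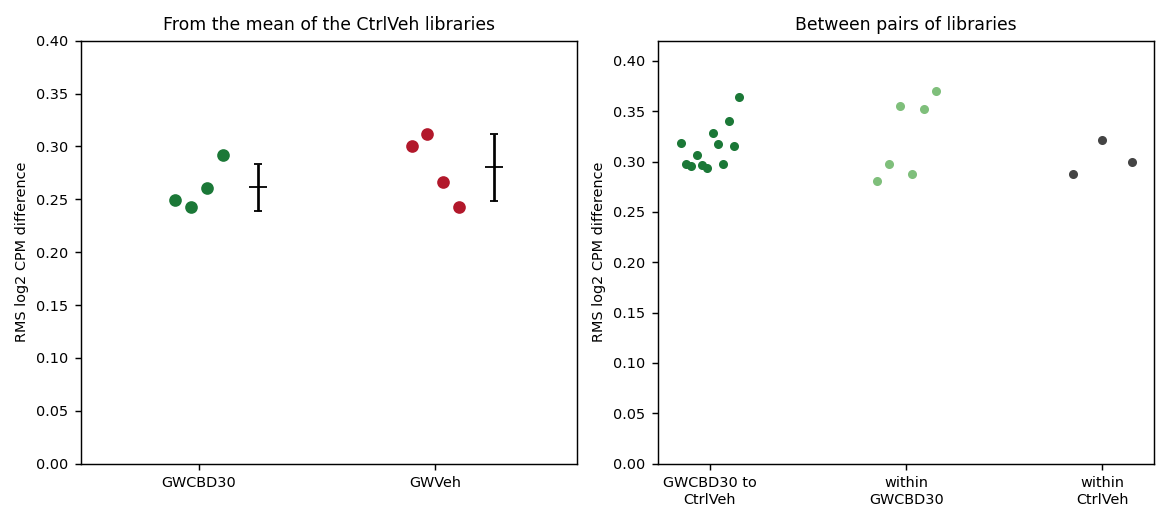
Root mean square log2 CPM difference over 16168 genes, from the mean of the 3 CtrlVeh libraries for each GWCBD30 and GWVeh library (left; bars, mean ± SD, n = 4 each) and between pairs of libraries (right; 12, 6 and 3 pairs). GWCBD30 libraries lay at 0.243 to 0.292 and GWVeh libraries at 0.243 to 0.312 from the control mean.

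The smallest p belonged to *Tsc22d3*, which encodes GILZ, a leucine zipper protein that glucocorticoids induce and that carries part of their anti-inflammatory action (chromosome X, 140539528 to 140600659, minus strand, GRCm38). It had 51.5, 55.3, 50.6 and 53.7 CPM in GWCBD30, 60.1, 57.6, 55.0 and 54.4 CPM in GWVeh, and 62.9, 65.9 and 67.8 CPM in CtrlVeh. Every GWCBD30 library and every GWVeh library lay below every CtrlVeh library. The log2 fold change of GWCBD30 over CtrlVeh was -0.31 ± 0.07 (SE), with a 95% interval of -0.45 to -0.17 and an unadjusted p of 6.18e-05, and that of GWVeh over CtrlVeh, which rests on the same 3 control libraries, was -0.21.

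*Nr4a3*, an orphan nuclear receptor gene that neuronal activity induces early (chromosome 4, 48045153 to 48086447, plus strand), was also lower. It had 25.2, 25.3, 27.9 and 28.9 CPM in GWCBD30, 30.1, 18.9, 22.5 and 26.4 CPM in GWVeh, and 40.2, 42.6 and 37.5 CPM in CtrlVeh. The controls stood above both exposed groups with no overlap. The log2 fold change was -0.58 ± 0.15 for GWCBD30 over CtrlVeh (unadjusted p = 0.00118) and -0.71 for GWVeh over CtrlVeh. *Nr4a3* was the 1 gene that passed when the low-count filter was dropped (adjusted p = 0.000194 by edgeR) and the 1 gene that passed when the 2 groups were fitted alone (adjusted p = 0.0131 by edgeR).

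*Slc7a4*, a member of the cationic amino acid transporter family (chromosome 16, 17572018 to 17583214, minus strand), had 62.1, 63.9, 62.3 and 62.1 CPM in GWCBD30, 62.7, 64.2, 64.6 and 60.9 CPM in GWVeh, and 59.8, 49.7 and 47.1 CPM in CtrlVeh. The exposed libraries were close to each other and all above the controls, of which replicate 1 was the nearest. *Mppe1*, which encodes the phosphodiesterase that trims the ethanolamine phosphate of GPI anchors, averaged 17.8 ± 0.240 CPM in GWCBD30 and 14.1 ± 0.439 CPM in CtrlVeh (SD, n = 4 and 3, as for all later means of these groups), without overlap. The log2 fold changes were 0.27 ± 0.07 for *Slc7a4* and 0.34 ± 0.09 for *Mppe1*, against 0.28 and 0.23 in GWVeh over the same controls.

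*Naglu*, the lysosomal enzyme that removes N-acetylglucosamine from heparan sulphate (chromosome 11, 101070012 to 101077672, plus strand), had 14.0, 15.3, 13.5 and 12.5 CPM in GWCBD30 and 9.05, 9.04 and 12.6 CPM in CtrlVeh, and CtrlVeh replicate 3 reached into the GWCBD30 range. *Trp53*, which encodes the p53 tumour suppressor, had 21.6, 23.3, 23 and 20.1 CPM in GWCBD30 and 16.1, 18.5 and 18.2 CPM in CtrlVeh, with all GWCBD30 libraries above (log2 fold change 0.32 ± 0.10). *Ap4b1*, a subunit of the AP-4 adaptor that sorts cargo at the trans-Golgi network, averaged 1.12 ± 0.189 CPM in GWCBD30 and 2.10 ± 0.423 CPM in CtrlVeh. *Foxn2*, a forkhead factor gene, averaged 22.5 ± 2.28 CPM in GWCBD30 and 27.9 ± 2.55 CPM in CtrlVeh, and *Pbld2* averaged 1.38 ± 0.199 CPM in GWCBD30 and 0.547 ± 0.0643 CPM in CtrlVeh. Log2 fold changes of GWCBD30, and then GWVeh, over the same controls were 0.43 and 0.27 for *Naglu* and 0.32 and 0.13 for *Trp53*. They were -0.89 and -0.52 for *Ap4b1*, -0.31 and -0.34 for *Foxn2*, and 1.31 and 1.23 for *Pbld2*.

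The remaining genes of small p were pseudogenes, whose reads cannot be told with certainty from those of near-identical copies. *Gm28437*, an unprocessed pseudogene (chromosome 1, 24613189 to 24613971, minus strand), had 35.8, 50.6, 36.2 and 34.7 CPM in GWCBD30 and 286, 32.0 and 177 CPM in CtrlVeh. The control libraries themselves spanned 32.0 to 286 CPM, so that the groups overlapped although the fitted log2 fold change was -2.07 ± 0.44. It was the gene that DESeq2 called (adjusted p = 0.0297), and edgeR called it once CtrlVeh replicate 2, the low one, was left out (-2.56, adjusted p = 0.000195). The processed pseudogenes *Gm4149* and *Btf3-ps1* averaged 0.767 ± 0.224 and 1.57 ± 0.580 CPM in GWCBD30, and 2.20 ± 1.08 and 3.42 ± 1.57 CPM in CtrlVeh. *Gm11249*, also a processed pseudogene, averaged 1.04 ± 0.525 CPM in GWCBD30 and 0.327 ± 0.0501 CPM in CtrlVeh.

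**Figure D3:**
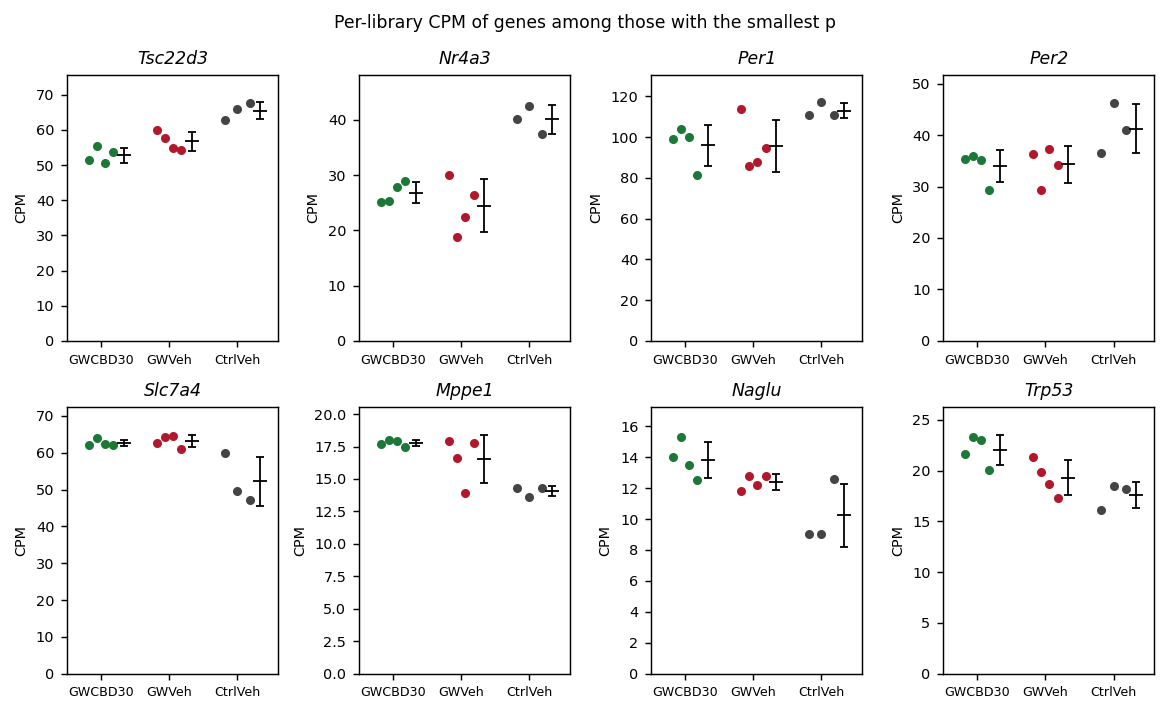
CPM in each library of GWCBD30 (green, n = 4), GWVeh (red, n = 4) and CtrlVeh (grey, n = 3) for 6 genes of small p and 2 clock genes; bars give mean ± SD. *Tsc22d3* and *Nr4a3* were lower in every GWCBD30 library (50.6 to 55.3 and 25.2 to 28.9 CPM) than in any CtrlVeh library (62.9 to 67.8 and 37.5 to 42.6 CPM), and none passed adjustment over all genes.

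The genes were next described in 49 lists of pathways and cell types. No list held a gene past the threshold. Over the 991 entries tested in these lists, some genes counted in more than 1, 12 were higher and 27 lower in GWCBD30 at an unadjusted p under 0.05, which is 3.94% against 3.10% of all genes. The shares over all genes, for setting beside each list, were 1.61% higher and 1.48% lower at that p, and 51.3% above 0. In the 43 lists with at least 10 members tested, the median log2 fold change ran from -0.15 to 0.15.

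**Figure D4:**
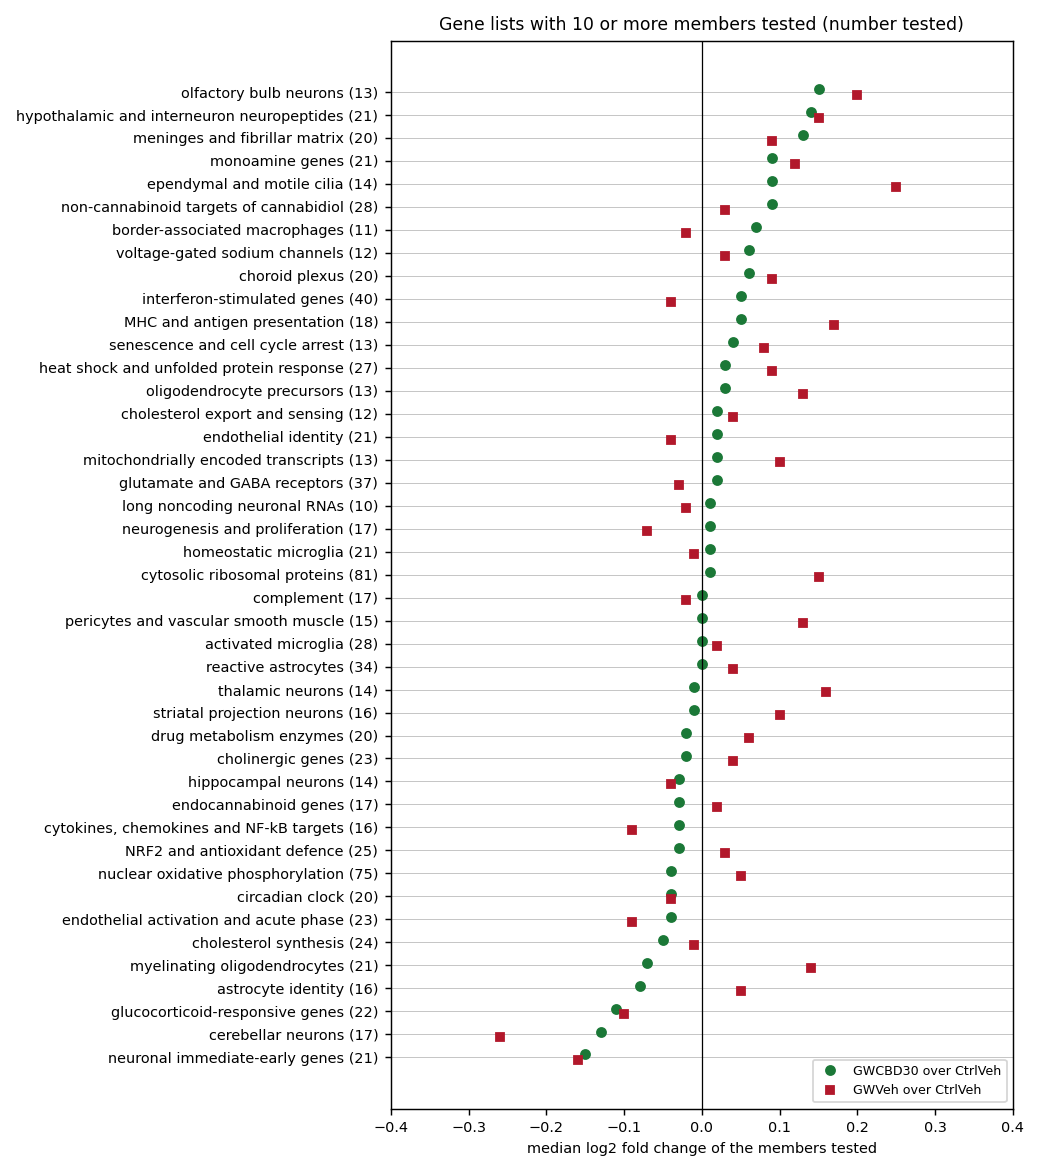
Median log2 fold change of the members tested in each of the 43 lists with 10 or more such members, for GWCBD30 over CtrlVeh (green circles) and GWVeh over CtrlVeh (red squares), which share the 3 CtrlVeh libraries; the number tested is in brackets. GWCBD30 medians lay between -0.15 (neuronal immediate-early genes) and 0.15 (olfactory bulb neurons), and no list held a gene past the threshold.

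Genes that respond to glucocorticoid hormones lay mostly on the lower side in GWCBD30, 17 of 22 below 0. All 22 members were tested, and 0 were called. At an unadjusted p under 0.05, 4 were lower and 0 higher (1.48% and 1.61% of all genes). Of all genes, 51.3% lay above 0. The median log2 fold change was -0.11, against -0.10 in GWVeh over the same controls and a median of 0.004 over all genes. After *Tsc22d3* came *Per1*, a clock gene with a glucocorticoid response element, with 99.0, 104, 99.8 and 81.2 CPM in GWCBD30, 114, 85.8, 87.9 and 94.8 CPM in GWVeh, and 111, 117 and 111 CPM in CtrlVeh. GWCBD30 stayed below the controls in every library, and GWVeh replicate 1 lay within the control range. *Klf9*, a glucocorticoid-induced Krüppel-like factor, averaged 155 ± 12.5 CPM in GWCBD30 and 175 ± 10.7 CPM in CtrlVeh. *Fkbp5*, the FK506-binding co-chaperone that is widely used as a readout of glucocorticoid receptor activity, averaged 23.5 ± 2.17 CPM in GWCBD30 and 23.8 ± 3.32 CPM in CtrlVeh, and *Sgk1*, a kinase gene induced by the same receptor, 62.6 ± 5.76 CPM in GWCBD30 and 66.5 ± 8.43 CPM in CtrlVeh. The 95% intervals of these last differences ran from -0.22 to 0.20 for *Fkbp5* and from -0.50 to 0.33 for *Sgk1*.

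Of the 20 circadian clock genes, 2 were lower at an unadjusted p under 0.05 (1.48% of all genes). These were *Per2* and *Per1*, the latter also in the glucocorticoid list. The median log2 fold change was -0.04, and for all 20 the interval lay within 0.5. *Per2*, a repressor in the clock's feedback loop, had 35.3, 35.9, 35.2 and 29.3 CPM in GWCBD30 and 36.6, 46.2 and 40.9 CPM in CtrlVeh, and *Bhlhe40*, another clock repressor, averaged 94.9 ± 4.73 CPM in GWCBD30 and 105 ± 3.72 CPM in CtrlVeh. For *Per2* the lowest control lay just above the highest GWCBD30 library, and GWCBD30 replicate 4 was the lowest of all 7.

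The immediate-early genes, which neurons transcribe within minutes of activity, had a median of -0.15, the lowest for GWCBD30 over CtrlVeh among lists with 10 or more members tested, and -0.16 for GWVeh over the same controls. Of 21 tested, 3 were lower and 1 higher at an unadjusted p under 0.05 (1.48% and 1.61% of all genes). *Nr4a2*, the relative of *Nr4a3* needed by dopamine neurons, had 32.9, 35.3, 34.5 and 35.7 CPM in GWCBD30 and 41.0, 45.6 and 36.6 CPM in CtrlVeh, without overlap (log2 fold change -0.25 ± 0.10). *Klf4* averaged 2.61 ± 0.600 CPM in GWCBD30 and 3.90 ± 1.44 CPM in CtrlVeh. *Fos*, the classic marker of recent activity, varied widely within groups, with 40.7, 36.8, 18.1 and 21.9 CPM in GWCBD30 and 30.8, 49.4 and 31.3 CPM in CtrlVeh, and *Arc*, which acts at synapses, averaged 131 ± 23.4 CPM in GWCBD30 and 145 ± 20.7 CPM in CtrlVeh. The groups overlapped for *Fos* and *Arc*.

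Of 21 homeostatic microglia genes, 1 was higher and 1 lower at an unadjusted p under 0.05, the median log2 fold change was 0.01, and 18 had an interval within 0.5. Their summed level was 695 to 798 CPM in GWCBD30, 719 to 933 CPM in GWVeh and 765 to 819 CPM in CtrlVeh. *Olfml3*, a secreted protein gene enriched in microglia, had 15.2, 15.4, 14.3 and 13.5 CPM in GWCBD30 and 12.4, 10.4 and 12.1 CPM in CtrlVeh, and *Tmem119*, a marker of resident microglia, had 16.2, 17.7, 18.4 and 17.7 CPM in GWCBD30 and 15.9, 15.4 and 16.1 CPM in CtrlVeh. Both were above the controls in every GWCBD30 library, *Tmem119* only just. *Tgfbr1*, a receptor for the TGF-β on which microglial identity depends, had a log2 fold change of -0.23 ± 0.10, at 22.1 ± 2.39 CPM in GWCBD30 and 25.9 ± 2.45 CPM in CtrlVeh, and *Csf1r*, the receptor for the microglial survival factor, averaged 57.2 ± 6.99 CPM in GWCBD30 and 54.7 ± 4.66 CPM in CtrlVeh. Of 28 genes of activated microglia, 0 reached an unadjusted p under 0.05. Their median was 0.00, with 14 above 0 and 14 below. *Igf1*, a growth factor gene, averaged 7.71 ± 0.971 CPM in GWCBD30 and 8.92 ± 0.603 CPM in CtrlVeh. *Lyz2*, the lysozyme of myeloid cells, averaged 12 ± 2.51 CPM in GWCBD30 and 15.0 ± 2.17 CPM in CtrlVeh. *Ch25h* lay on the higher side, at 0.571 ± 0.278 CPM in GWCBD30 and 0.322 ± 0.118 CPM in CtrlVeh, and the groups overlapped.

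Complement genes gave no member at an unadjusted p under 0.05 among 17 tested of 19, and their median log2 fold change was 0.00. *C1qa*, which encodes a chain of the C1q recognition molecule, had 40.4, 39.3, 33.3 and 30.9 CPM in GWCBD30 and 35.1, 30.7 and 37.6 CPM in CtrlVeh, and the groups overlapped through most of their range. *C1qb* averaged 35.6 ± 4.86 CPM in GWCBD30 and 33.9 ± 4.59 CPM in CtrlVeh, and *C1qc* 27.3 ± 3.90 CPM in GWCBD30 and 24.7 ± 0.865 CPM in CtrlVeh. The intervals of the log2 fold change ran from -0.13 to 0.26, from -0.11 to 0.26 and from -0.06 to 0.36 for the 3 chains. Macrophages of the brain's borders were represented by 11 genes, 1 of them higher at an unadjusted p under 0.05. That gene was *Cd163*, a haemoglobin scavenger receptor, with 2.82, 2.64, 5.37 and 2.99 CPM in GWCBD30 and 2.39, 2.90 and 1.94 CPM in CtrlVeh, where GWCBD30 replicate 3 alone was clearly above. *Lyve1*, another border macrophage marker, averaged 0.291 ± 0.0942 CPM in GWCBD30 and 0.612 ± 0.269 CPM in CtrlVeh.

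**Figure D5:**
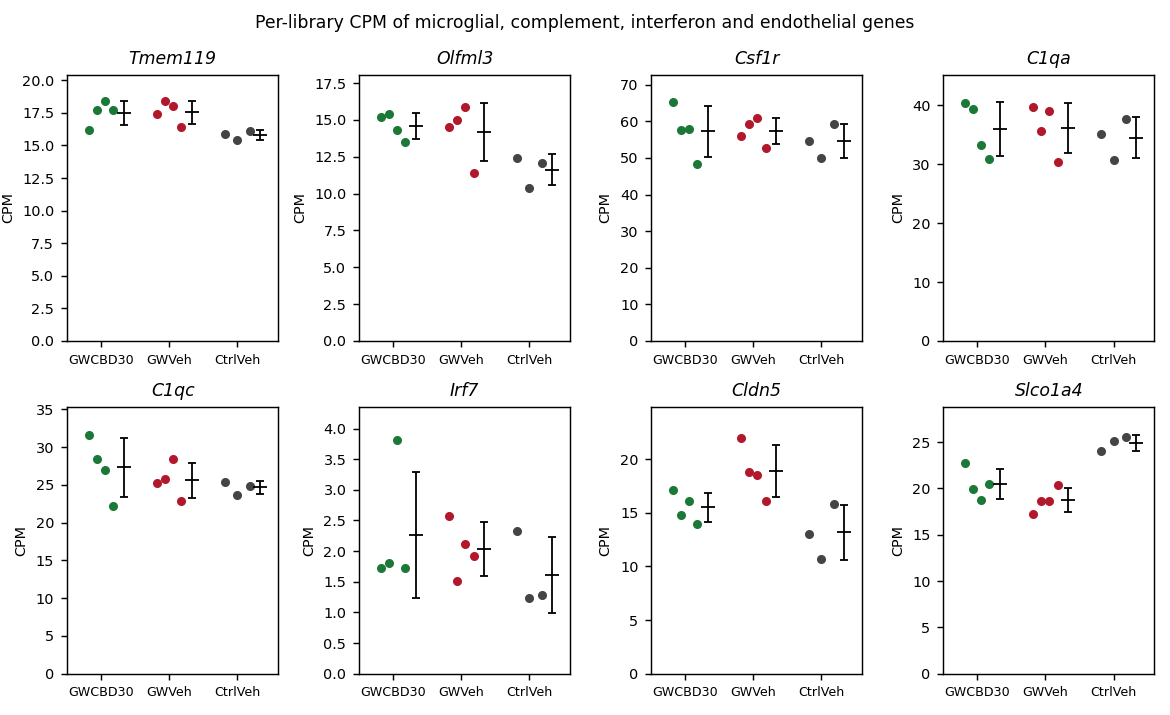
CPM in each library of GWCBD30 (green, n = 4), GWVeh (red, n = 4) and CtrlVeh (grey, n = 3) for microglial (*Tmem119*, *Olfml3*, *Csf1r*), complement (*C1qa*, *C1qc*), interferon (*Irf7*) and endothelial (*Cldn5*, *Slco1a4*) genes; bars give mean ± SD. *Csf1r* and *C1qa* overlapped between groups, and *Slco1a4* lay at 18.8 to 22.7 CPM in GWCBD30 and 24.0 to 25.6 CPM in CtrlVeh.

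Interferon-stimulated genes had a median log2 fold change of 0.05 over 40 tested of 41, with 1 higher and 1 lower at an unadjusted p under 0.05. These were the paired antiviral synthetase genes *Oas1a*, at 0.756 ± 0.335 CPM in GWCBD30 and 0.387 ± 0.177 CPM in CtrlVeh, and *Oas2*, at 0.668 ± 0.329 CPM in GWCBD30 and 1.26 ± 0.36 CPM in CtrlVeh, so these 2 members of a family lay on opposite sides, and both overlapped between groups. *Irf7*, the master factor of the interferon response, had 1.73, 1.80, 3.81 and 1.72 CPM in GWCBD30 and 2.33, 1.24 and 1.28 CPM in CtrlVeh, the highest value again in GWCBD30 replicate 3. *Bst2*, which tethers budding virus, averaged 5.01 ± 1.09 CPM in GWCBD30 and 3.8 ± 0.774 CPM in CtrlVeh. Among 18 genes of antigen presentation 0 reached an unadjusted p under 0.05, the median was 0.05, and *H2-DMa*, which loads peptides on MHC class II, averaged 11.4 ± 0.559 CPM in GWCBD30 and 9.92 ± 1.18 CPM in CtrlVeh. *Tap1*, a chain of the transporter that feeds peptides to MHC class I, averaged 4.92 ± 1.15 CPM in GWCBD30 and 4.08 ± 0.990 CPM in CtrlVeh.

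Of 25 cytokine, chemokine and NF-κB genes, 16 had enough counts to be tested, 2 were lower at an unadjusted p under 0.05, and the median log2 fold change was -0.03. *Tlr4*, the receptor for LPS, had 1.1, 1.06, 1.65 and 1.42 CPM in GWCBD30 and 2.28, 2.03 and 1.82 CPM in CtrlVeh, with every GWCBD30 library lower. Its log2 fold change was -0.64 ± 0.30, against -0.83 in GWVeh over the same controls. *Tlr2*, which senses bacterial lipoproteins, averaged 1.69 ± 0.630 CPM in GWCBD30 and 2.56 ± 0.557 CPM in CtrlVeh. *Relb*, a subunit of the non-canonical NF-κB dimer, averaged 5.68 ± 0.728 CPM in GWCBD30 and 4.62 ± 0.252 CPM in CtrlVeh. *Tnf*, *Il1b* and *Il6*, the main inflammatory cytokines, were among the 9 genes not tested, with at most 5, 9 and 1 counts in any of the 7 libraries. A difference between counts as low as these was not resolved at this depth.

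In the blood vessels, 21 genes of endothelial identity had a median log2 fold change of 0.02, with 1 lower at an unadjusted p under 0.05. That was *Slco1a4*, an organic anion transporter of the blood-brain barrier, at 22.7, 19.9, 18.8 and 20.5 CPM in GWCBD30, 17.2, 18.7, 18.6 and 20.4 CPM in GWVeh, and 24.0, 25.1 and 25.6 CPM in CtrlVeh. Every exposed library lay below the controls, and the log2 fold changes over the shared controls were -0.28 ± 0.10 for GWCBD30 and -0.41 for GWVeh. *Cldn5*, the claudin of the endothelial tight junction, had 17.1, 14.8, 16.1 and 14.0 CPM in GWCBD30, 22, 18.8, 18.5 and 16.1 CPM in GWVeh, and 13, 10.7 and 15.8 CPM in CtrlVeh. GWCBD30 overlapped the controls and GWVeh did not. *Abcb1a*, the drug efflux pump P-glycoprotein, averaged 15.2 ± 1.87 CPM in GWCBD30 and 17.7 ± 1.44 CPM in CtrlVeh.

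Genes of endothelial activation and the acute phase had a median of -0.04 over 23 tested of 25, with 1 lower at an unadjusted p under 0.05. That was *Xdh*, xanthine dehydrogenase, at 3.88, 4.76, 4.45 and 2.58 CPM in GWCBD30 and 5.12, 5.49 and 6.05 CPM in CtrlVeh, without overlap. Its log2 fold change was -0.50, against -0.59 in GWVeh over the same controls. *Icam1*, which holds leukocytes to the vessel wall, averaged 2.32 ± 0.765 CPM in GWCBD30 and 2.30 ± 0.471 CPM in CtrlVeh. *Lcn2*, an iron-binding acute-phase protein, had 1.98, 0.878, 0.183 and 0.304 CPM in GWCBD30 and 4.84, 1.89 and 0.815 CPM in CtrlVeh. *S100a8*, a neutrophil calprotectin gene, had 1.73, 0.416, 0.229 and 0.506 CPM in GWCBD30 and 5.58, 2.77 and 0.233 CPM in CtrlVeh. Of 18 genes of blood leukocytes 8 were tested, 0 reached an unadjusted p under 0.05, their median was -0.80, and their summed level was 12.3 to 17.5 CPM in GWCBD30, 11.1 to 25.2 CPM in GWVeh and 13 to 29.3 CPM in CtrlVeh. Red blood cell genes, 9 tested of 10, summed to 379 to 554 CPM in GWCBD30, 380 to 1040 CPM in GWVeh and 413 to 430 CPM in CtrlVeh, and the part of blood in these values was not tested.

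Matrix genes of the meninges lay mostly on the higher side, 18 of 20 above 0 (51.3% of all genes), with a median of 0.13 and 2 higher at an unadjusted p under 0.05. *Col3a1*, a fibrillar collagen of the meninges and vessel walls, had 2.61, 2.54, 2.39 and 3.04 CPM in GWCBD30 and 1.71, 1.66 and 1.55 CPM in CtrlVeh, with no overlap (log2 fold change 0.69 ± 0.25). *Col4a2*, a chain of basement membrane collagen, averaged 50.4 ± 3.6 CPM in GWCBD30 and 43.6 ± 2.31 CPM in CtrlVeh, and *Igf2*, a growth factor made by meninges and choroid plexus, 2.61 ± 0.526 CPM in GWCBD30 and 1.81 ± 0.760 CPM in CtrlVeh. The mean log2 CPM of the list was 3.59 to 3.75 in GWCBD30, 3.51 to 3.8 in GWVeh and 3.49 to 3.59 in CtrlVeh.

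Astrocyte identity genes lay on the lower side in GWCBD30, 14 of 16 below 0 (of all genes, 51.3% were above 0) with a median of -0.08, against a median of 0.05 in GWVeh over the same controls. Of the 16, 1 was lower at an unadjusted p under 0.05 (1.48% of all genes) and 4 were lower without overlap between groups (2.73% of all genes). *Slc1a3*, the glutamate transporter GLAST, had 500, 473, 494 and 508 CPM in GWCBD30 and 532, 529 and 562 CPM in CtrlVeh, *Gjb6*, the connexin 30 of astrocyte gap junctions, averaged 53.6 ± 2.17 CPM in GWCBD30 and 60.5 ± 4.08 CPM in CtrlVeh, and *S100b*, a calcium-binding protein, 123 ± 14.3 CPM in GWCBD30 and 152 ± 9.87 CPM in CtrlVeh. The largest of these log2 fold changes was -0.31 ± 0.16, and 15 of the 16 intervals lay within 0.5. *Gfap*, the intermediate filament that rises in reactive astrocytes, averaged 283 ± 41.1 CPM in GWCBD30 and 266 ± 25.7 CPM in CtrlVeh, and of 34 reactive astrocyte genes 1 was lower at an unadjusted p under 0.05, with a median of 0.00.

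Of 21 genes of myelinating oligodendrocytes, 3 were lower and 0 higher at an unadjusted p under 0.05 (1.48% and 1.61% of all genes). In this list 17 lay below 0, where 51.3% of all genes lay above 0. The median was -0.07, against 0.14 in GWVeh over the same controls and -0.21 for GWCBD30 over GWVeh. *Mobp*, a myelin-associated basic protein, had 677, 694, 601 and 688 CPM in GWCBD30, 939, 829, 864 and 688 CPM in GWVeh, and 764, 730 and 926 CPM in CtrlVeh. GWCBD30 lay below every control, and GWVeh spread across and beyond them. *Cldn11*, which seals the myelin sheath, averaged 102 ± 10.4 CPM in GWCBD30 and 118 ± 4.69 CPM in CtrlVeh, and *Mal*, a lipid raft protein of myelin, 158 ± 5.91 CPM in GWCBD30 and 183 ± 27.9 CPM in CtrlVeh. *Mbp*, the major basic protein of compact myelin, averaged 2630 ± 279 CPM in GWCBD30, 3160 ± 543 CPM in GWVeh and 2750 ± 171 CPM in CtrlVeh.

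In protein folding, lipid and redox pathways the medians were near that of all genes. Among 27 heat shock and unfolded protein response genes the median was 0.03, 25 intervals lay within 0.5, and *Atf4*, the factor of the integrated stress response, was lower in every GWCBD30 library at 87.0 ± 6.10 CPM, against 99.7 ± 1.99 CPM in CtrlVeh. Among 24 cholesterol synthesis genes the median was -0.05 and 23 intervals lay within 0.5, and *Insig1*, which retains the sterol sensor in the endoplasmic reticulum, averaged 89.7 ± 4.85 CPM in GWCBD30 and 100 ± 4.29 CPM in CtrlVeh. Among 25 NRF2 and antioxidant genes 2 were higher and 1 lower at an unadjusted p under 0.05, with a median of -0.03. *Keap1*, which holds NRF2 in the cytosol, averaged 59.0 ± 2.88 CPM in GWCBD30 and 53.1 ± 2.31 CPM in CtrlVeh, *Gpx1*, a glutathione peroxidase, 6.65 ± 0.885 CPM in GWCBD30 and 5.03 ± 0.982 CPM in CtrlVeh, and *Prdx1*, a peroxiredoxin, 98.9 ± 7.60 CPM in GWCBD30 and 113 ± 5.78 CPM in CtrlVeh. GWCBD30 and GWVeh log2 fold changes over CtrlVeh were 0.15 and 0.24 for *Keap1*, 0.42 and 0.52 for *Gpx1*, and -0.20 and -0.06 for *Prdx1*.

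Of 75 nuclear genes of oxidative phosphorylation, 0 reached an unadjusted p under 0.05. The median log2 fold change was -0.04 and 73 intervals lay within 0.5, with 53 of the 75 below 0 (of all genes, 51.3% were above 0). The member with the smallest p, *Ndufa12* of complex I, had 18.8, 52.7, 19.5 and 43.9 CPM in GWCBD30 and 22.7, 20.0 and 17.3 CPM in CtrlVeh, with GWCBD30 replicates 2 and 4 far above all the other libraries. Among 13 mitochondrially encoded transcripts the median was 0.02 and only 7 intervals lay within 0.5. *mt-Nd3*, a complex I subunit, had 4.89, 30.1, 3.35 and 3.49 CPM in GWCBD30 and 4.04, 2.81 and 5.63 CPM in CtrlVeh, its high value in replicate 2 alone. Its log2 fold change was 1.32 ± 0.72 with that library and -0.09 without it.

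The 81 genes of cytosolic ribosomal proteins had a median log2 fold change of 0.01 in GWCBD30 and 0 members at an unadjusted p under 0.05, against a median of 0.15 and 29 higher members in GWVeh over the same controls (of all genes, 4.81% were higher at that p in that comparison). Their mean log2 CPM was 6.51, 6.49, 6.38 and 6.36 in GWCBD30, 6.76, 6.66, 6.48 and 6.41 in GWVeh, and 6.52, 6.44 and 6.40 in CtrlVeh. GWCBD30 libraries overlapped the controls, and GWVeh replicates 1 and 2 lay above all others. *Rpl13*, a protein of the large subunit, had 242, 230, 234 and 202 CPM in GWCBD30, 279, 275, 238 and 222 CPM in GWVeh, and 211, 200 and 213 CPM in CtrlVeh. *Rps27a*, a fusion of ubiquitin and a small-subunit protein with many processed copies in the genome, averaged 51.2 ± 2.23 CPM in GWCBD30 and 74.6 ± 17.9 CPM in CtrlVeh.

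*Ache*, the acetylcholinesterase that pyridostigmine inhibits, had 124, 124, 126 and 89.7 CPM in GWCBD30 and 105, 108 and 117 CPM in CtrlVeh, with GWCBD30 replicate 4 below the controls and its other libraries above. Of 23 cholinergic genes 1 was lower at an unadjusted p under 0.05, *Chrnb3*, a nicotinic receptor subunit, at 2.07 ± 0.459 CPM in GWCBD30 and 2.98 ± 0.627 CPM in CtrlVeh. The median log2 fold change of the list was -0.02. *Chrna5* and *Chrm5* lay on the higher side, with log2 fold changes of 0.53 ± 0.28 and 0.57 ± 0.32, against -0.51 ± 0.22 for *Chrnb3*. Of 12 sodium channel genes tested of 14, 0 reached an unadjusted p under 0.05. Their median log2 fold change was 0.06, with 8 above 0 (51.3% of all genes) and 4 below. *Scn2a* and *Scn8a*, main pore subunits of adult neurons, averaged 337 ± 24.2 and 423 ± 11 CPM in GWCBD30, and 333 ± 19.1 and 412 ± 8.82 CPM in CtrlVeh, with intervals of -0.13 to 0.16 and -0.10 to 0.17. *Scn4b*, an auxiliary subunit, averaged 273 ± 4.07 CPM in GWCBD30 and 298 ± 20.5 CPM in CtrlVeh. *Scn7a* and *Scn3a* lay on the higher side, at 6.76 ± 0.448 and 49.3 ± 2.20 CPM in GWCBD30, and 5.40 ± 0.833 and 43.8 ± 4.37 CPM in CtrlVeh. *Scn7a* did not overlap between groups.

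Among 17 endocannabinoid genes 1 was higher at an unadjusted p under 0.05, the median was -0.03 and 16 intervals lay within 0.5. That gene was *Faah*, the hydrolase that degrades anandamide, with 98.3, 94.3, 101 and 98.4 CPM in GWCBD30 and 92.2, 88.6 and 88.6 CPM in CtrlVeh, each GWCBD30 library higher (log2 fold change 0.13 ± 0.06). *Cnr1*, the CB1 receptor, averaged 215 ± 23.8 CPM in GWCBD30 and 221 ± 8.66 CPM in CtrlVeh, with an interval of -0.21 to 0.13. Of 28 tested genes for other reported targets of CBD, 0 reached an unadjusted p under 0.05 and the median was 0.09; *Trpv3*, a heat-gated TRP channel, averaged 2.02 ± 0.718 CPM in GWCBD30 and 1.33 ± 0.189 CPM in CtrlVeh. Among 20 tested genes of drug metabolism 1 was lower at an unadjusted p under 0.05, *Adh1*, an alcohol dehydrogenase, at 0.253, 0.0925, 0.0917 and 0 CPM in GWCBD30 and 0.171, 0.277 and 0.737 CPM in CtrlVeh, near the floor of detection.

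Of 37 glutamate and GABA receptor subunits 34 intervals lay within 0.5, the median was 0.02 and 1 was higher at an unadjusted p under 0.05, *Grin3a*, an NMDA receptor subunit, at 58.4 ± 1.15 CPM in GWCBD30 and 52.1 ± 5.46 CPM in CtrlVeh. *Slc6a2*, the noradrenaline transporter of the locus coeruleus, had 2.74, 2.96, 2.94 and 3.39 CPM in GWCBD30 and 4.72, 4.10 and 4.27 CPM in CtrlVeh, without overlap. Its log2 fold change was -0.54 ± 0.25, against -0.60 in GWVeh over the same controls. *Tph2* had 15.3, 15.2, 11.1 and 1.32 CPM in GWCBD30, 19.2, 19.7, 5.68 and 1.84 CPM in GWVeh, and 3.70, 4.93 and 7.41 CPM in CtrlVeh. *Slc6a4*, the serotonin transporter of the same raphe neurons, averaged 6.34 ± 4.31 CPM in GWCBD30 and 3.22 ± 1.22 CPM in CtrlVeh, so in both serotonin genes GWCBD30 replicate 4 lay below the controls and the other GWCBD30 libraries above.

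Neuropeptide genes of the hypothalamus and of interneurons had a median of 0.14 over 21 tested of 23, with 1 higher at an unadjusted p under 0.05. That was *Cartpt*, an appetite-suppressing peptide, with 12.8, 9.06, 8.17 and 6.48 CPM in GWCBD30 and 6.32, 5.30 and 4.11 CPM in CtrlVeh, each GWCBD30 library higher. Its log2 fold change was 0.82 ± 0.32, against 1.15 in GWVeh over the same controls. *Trh*, thyrotropin-releasing hormone, had 8.80, 7.72, 6.24 and 6.28 CPM in GWCBD30, 10.7, 13.1, 10.4 and 6.34 CPM in GWVeh, and 5.18, 6.22 and 5.20 CPM in CtrlVeh. All GWCBD30 libraries lay above the controls, the lowest only just. *Pomc* went the other way, at 1.64, 1.48, 1.33 and 0.506 CPM in GWCBD30 and 1.48, 4.70 and 1.01 CPM in CtrlVeh, with overlap. Its log2 fold change was -0.93 ± 0.56, and 0.03 without CtrlVeh replicate 2. Of the 21 neuropeptide genes, 17 lay above 0 and 4 below. Among markers of brain regions, 13 olfactory bulb genes had a median of 0.15, against 0.20 in GWVeh over the same controls. The 17 cerebellar genes had a median of -0.13, against -0.26 in GWVeh. In GWCBD30, 16 of these 17 lay below 0 (of all genes, 51.3% were above 0). The summed cerebellar level was 2780 to 3470 CPM in GWCBD30, 2410 to 3260 CPM in GWVeh and 3060 to 3530 CPM in CtrlVeh, and that of the olfactory bulb 237 to 262 CPM in GWCBD30, 256 to 289 CPM in GWVeh and 233 to 251 CPM in CtrlVeh. *S100a5*, a gene of olfactory sensory axons, had 0.295, 0.416, 0.550 and 0.202 CPM in GWCBD30 and 0 counts in all 3 CtrlVeh libraries, where 3 counts would be 0.118 to 0.172 CPM. With the olfactory bulb and cerebellar scores as covariates, 0 genes were called, as without them.

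For the genes that differed most between GWVeh and CtrlVeh, the GWCBD30 values are set beside both. These genes were chosen by the smallest p of GWVeh against CtrlVeh, so their GWVeh values are extreme by choice, the GWCBD30 values are given as a description, and no test is read from them. *Arl5b*, a small GTPase of the trans-Golgi network, had 28.6, 27.9, 28.2 and 37.0 CPM in GWCBD30, 22.2, 25.3, 26.1 and 28.1 CPM in GWVeh, and 34.8, 40.3 and 34.4 CPM in CtrlVeh. *Hap1*, a huntingtin-associated transport protein abundant in the hypothalamus, had 246, 236, 235 and 190 CPM in GWCBD30, 257, 295, 277 and 225 CPM in GWVeh, and 205, 201 and 185 CPM in CtrlVeh. In both genes GWCBD30 replicate 4 lay in the control range and its other libraries outside it.

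*Fosl2*, a Fos family transcription factor, had 30.3, 34.1, 34.4 and 37.4 CPM in GWCBD30, 28.6, 21.1, 29.7 and 28.8 CPM in GWVeh, and 43.2, 40.3 and 34.5 CPM in CtrlVeh. *Celf6*, an RNA-binding protein of neurons, had 24.2, 26.4, 21.5 and 19.5 CPM in GWCBD30, 26.9, 28.2, 30.2 and 24.4 CPM in GWVeh, and 20.4, 19.9 and 19.1 CPM in CtrlVeh. *Nufip2*, an RNA-binding partner of FMRP, averaged 40.4 ± 4.19 CPM in GWCBD30, 34.6 ± 4.44 CPM in GWVeh and 45.0 ± 0.855 CPM in CtrlVeh, and *Calr*, a calcium-binding chaperone of the endoplasmic reticulum, 251 ± 8.70 CPM in GWCBD30, 282 ± 18.2 CPM in GWVeh and 234 ± 8.39 CPM in CtrlVeh. The log2 fold changes of GWCBD30 over CtrlVeh, beside those of GWVeh over the same controls, were -0.27 and -0.52 for *Arl5b*, 0.20 and 0.42 for *Hap1*, -0.21 and -0.53 for *Fosl2*, 0.21 and 0.47 for *Celf6*, -0.16 and -0.38 for *Nufip2*, 0.10 and 0.27 for *Calr*, and 0.16 and 0.48 for *1700003E16Rik*, a gene without a proper symbol. *Trh* (0.39 and 0.87), *Nr4a3* (-0.58 and -0.71) and *Gm11249* (1.66 and 2.09) complete the 10.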

How the data were processed

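Read counts per gene, whole numbers without normalization as the values show, were deposited for whole brains. Per the labels, only RNA of integrity 8.5 or higher was used, poly(A) libraries were stranded, reads were paired (150 bp), and alignment was to GRCm38/mm10. Which aligner, counter, annotation release and strand setting the authors used is not given in the sources used here, so overlapping and antisense genes are uncertain. Of 56748 identifiers, 52125 matched GENCODE M21, from which coordinates come. Columns of other samples numbered 0.

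edgeR 4.0.16 in R 4.3.3 kept 20026 genes (filterByExpr), scaled by TMM, and fitted a robust quasi-likelihood model to 22 libraries in 6 groups (16 residual degrees of freedom, common biological coefficient of variation 0.103). P-values were two-sided, adjusted over all genes by the Benjamini-Hochberg method, and called under 0.05. An SE is the log2 fold change over the square root of F, and intervals are 95%. A list's score is the mean log2 CPM (prior count 2). The labels number the samples as mice, and p-values measure the spread between these libraries. Libraries within GWCBD30, GWVeh and CtrlVeh differed by a chi-square per gene of 3.86 to 11.9, where counting noise alone gives about 1, so none was counted as a duplicate. The edgeR test was also run on simulated counts. The changes put in were larger than most described here and lay in better expressed genes, so the run does not cover small differences.

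The members and lists were chosen with earlier results of these data known. Named genes, of average log2 CPM 0 or above, are all past the threshold up to 12 each way, and where under 10 pass, the 10 of smallest p, with the next ones that have a proper symbol. Of each list described up to 3 members of smallest p were eligible at any level (*Ch25h*, *Lyve1*, *Adh1* and *S100a5* averaged below 0). *C1qa*, *C1qb*, *C1qc*, *Csf1r*, *Icam1*, *Irf7*, *Gfap*, *Mbp*, *Fkbp5*, *Sgk1*, *Fos*, *Arc*, *Ache*, *Cnr1*, *Scn2a*, *Scn8a*, *Tph2*, *Slc6a4* and the 10 genes of smallest p in GWVeh against CtrlVeh were chosen after their values were seen. DESeq2 1.42.0, limma 3.58.1 (voom with quality weights), sva 3.50.0 (1 surrogate variable), RLE and upper-quartile scaling, no filter, a filter of 1 CPM in 3 libraries, smaller fits, tissue scores as covariates, a replicate block and leaving out each library were alternatives.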

Additional observations from a re-analysis of the deposited data

Results flagged for a closer look

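Within GWCBD30 each of 93 genes and 13 list scores, and within GWVeh each of 16 genes, was examined for 1 library that lay far from the other 3. The measure is the gap to the nearest library divided by the range of the group, set against the 95% critical value of Dixon's test for 4 values. By chance about 1 in 20 such sets exceeds it, and here 12 of 122 did. The sets share libraries and include genes chosen after their values were seen, so no excess over chance is read from that count.

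GWCBD30 replicate 4 was the library far from the others in 5 of them. It was lowest in the pituitary score (gap ratio 0.870, scores 2.14, 2.17, 2.04 and 1.17, against 2.17 to 2.74 in CtrlVeh), in the meninges score (0.835, scores 3.72, 3.75, 3.75 and 3.59), in *Per2* (0.895) and in *Ache* (0.944), and highest in *Arl5b* (0.929). The pituitary score rested on 4 tested members of 11, *Pomc* among them. *Gh* and *Prl*, with at most 43 and 7 counts in any of the 7 libraries, were not tested, so the score is a poor measure of pituitary tissue. GWCBD30 replicate 4 was also low in *Tph2* and in red blood cell genes. Its part in the results was measured by leaving it out, which gave 0 called genes again.

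GWCBD30 replicate 2 was highest in *Gm28437* (0.905), *Slc7a4* (0.875) and *mt-Nd3* (0.942), the last at 30.1 CPM beside 3.35 to 4.89 CPM in the other 3 libraries. GWCBD30 replicate 3 was highest in *Cd163* (0.871) and *Irf7* (0.961) and lowest in *Mal* (0.984). In GWVeh, replicate 2 was lowest in *Fosl2* (0.875). Without GWCBD30 replicate 2 the log2 fold change of *mt-Nd3* was -0.09.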

How the results depend on the processing

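GWCBD30 against CtrlVeh gave 0 called genes in 16 of 20 alternatives. It gave 1 with no filter on low counts (*Nr4a3*), 1 with the 2 groups alone (*Nr4a3*) and 1 with DESeq2 (*Gm28437*), and leaving out single libraries gave 0 to 1, the 1 being *Gm28437* without CtrlVeh replicate 2. At an unadjusted p under 0.05 the count was 1266 with no filter, 2122 with voom and 1075 without GWCBD30 replicate 4. GWCBD30 against GWVeh gave 0 in all 21. GWVeh against CtrlVeh was the least settled, with 36 called with no filter, 1 with the 3 PBS groups alone, 2 with 1 surrogate variable, 6 with DESeq2, 176 with voom and 0 to 12 without single libraries (12 without GWVeh replicate 4, 1 without CtrlVeh replicate 2). Deviations of same-numbered libraries correlated weakly. The correlations were -0.05, -0.06 and 0.14 for GWCBD30 and CtrlVeh, and -0.02 to 0.01 for GWVeh and CtrlVeh. For GWCBD30 and GWVeh they were 0.07, 0.06, -0.02 and 0.23 (the last for replicates 4, both low in *Tph2*). Replicate 1 had the highest score for blood leukocyte genes in each group (0.55 in GWCBD30, 1.08 in GWVeh, 1.13 in CtrlVeh). Whether replicate numbers mark a shared order or batch was not tested. A replicate block gave 0 called genes for GWCBD30 against CtrlVeh, 0 for GWCBD30 against GWVeh and 9 for GWVeh against CtrlVeh. Intervals within 0.5 numbered 10864 to 11364 without single libraries, and those within 0.25 numbered 5799. With no filter up to 15727 lay within 0.5. An SE taken from the fold change is 0 where the fold change is 0, so genes without counts in both groups can enter that last number. It is therefore not read as more genes bounded. The difference in distance to the control mean stayed negative, -0.0317 to -0.00874, with exact p from 0.114 to 0.6. Leaving out single libraries turned the sign of *mt-Nd3* (-0.09 to 1.62, the lowest without GWCBD30 replicate 2) and of *Pomc* (-1.32 to 0.03, the highest without CtrlVeh replicate 2). *Pomc* is a member of both the neuropeptide and the pituitary lists. The causes were not tested. In all, 9 of 163 genes changed sign somewhere, the others with main values of -0.09 to 0.08: *C1qa* (-0.02), *C1qb* (-0.01), *Fkbp5* (0.10), *Icam1* (-0.21), *Mbp* (0.01), *Scn2a* (-0.03) and *Sgk1* (0.01), each at its farthest opposite value. Depth limits genes below a log2 CPM of 2, *Tlr2* and *Tlr4* among them.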
